A study of Mus musculus with 54 samples.

Results

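The genes described here are 9 genes of cytosolic RNA sensing, chosen by symbol out of 39179 genes with counts: Ddx58, Ifih1, Dhx58, Mavs, Eif2ak2, Zbp1, Adar, Tbk1 and Ikbke. Each was found once in the count files and passed the filter on low counts in both experiments. The study asked whether M2-like macrophages can be moved towards an M1-like state by knocking down transcription factors, and it sequenced RNA of mouse peritoneal macrophages for that purpose. Cells came from adult C57BL/6 mice, were elicited into the peritoneum with thioglycolate and kept as adherent cells. The labels give this strain for every sample and name no transgene or deletion.

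There were 15 conditions with 3 replicates each. In the first experiment, M0 macrophages had no polarizing agent, M1-like macrophages had LPS at 100 ng/ml together with IFNγ at 50 ng/ml, and M2-like macrophages had IL-4 at 10 ng/ml, each for 24 h. The 3 replicates were 3 mice that each gave all 3 states, and every mouse and state was sequenced as a pair of technical replicates, summed here. The second experiment, called the reprogramming experiment, had untransfected cells of all 3 states, made with the same agents, and cells of all 3 states given only the transfection reagent (mock). It also had M2-like macrophages transfected with a negative siRNA pool, with a siRNA pool against E2f1, Myc, Pparg or Stat6, or with the combined E2f1-Myc-Pparg-Stat6-siRNA pool (iM1). Transfected and mock cells were harvested 48 h after transfection and were kept without IL-4 during that time. The methods give 24 h after polarization for cells without transfection, but do not say whether that holds for the untransfected cells of this experiment. The siRNA amounts and the maker of the negative pool are not given in the sources used here. The Myc pool and the other 3 knockdown pools came from different makers. For iM1 cells and the 3 states, the methods name 3 biological replicates under RNA isolation, without saying whether these were separate mice. The labels do not say whether the 3 replicates of a reprogramming condition came from separate mice. The p-values of that experiment therefore measure the spread between these samples, which may be technical.

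Cells detect foreign RNA in the cytosol through RIG-I (Ddx58), MDA5 (Ifih1) and the related helicase LGP2 (Dhx58). RIG-I and MDA5 bind short and long double-stranded RNA, respectively, and pass the signal to MAVS on mitochondria, from where the kinases TBK1 and IKKε (Ikbke) activate IRF3 and the production of type I interferon. PKR (Eif2ak2) and ZBP1 bind double-stranded or Z-form RNA and stop translation or start cell death, and ADAR edits double-stranded RNA so that cellular RNA is not sensed. Several of these genes are known interferon-stimulated genes in macrophages and other cells.

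Interferon response elements, in the form of GAAA repeated after a gap of 2 bases on either strand, were looked for in RefSeq promoter windows of GRCm38.p6, which run from 250 bases before to 50 bases after a start site. Of the 9 genes, 7 had a window, and Dhx58 and Zbp1 had none. The element was found in the windows of Ddx58, Ifih1 and Eif2ak2, and in 3.44% of all 32851 windows. Forms with another gap or other letters were not looked for, so the other windows may hold them. Each match began after the start site, at base 3 in Ddx58, base 33 in Ifih1 and base 19 in Eif2ak2, counted from the start site as 1. It is shown in capitals within 30 bases on the minus strand, at chr4:40239804-40239833 for Ddx58, chr2:62646206-62646235 for Ifih1 and chr17:78882535-78882564 for Eif2ak2. The 100 bases before each start site follow, at chr4:40239826-40239925, chr2:62646256-62646355 and chr17:78882573-78882672. They are shown for these 3 genes because their windows held the element.
Ddx58 site: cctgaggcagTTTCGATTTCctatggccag
Ifih1 site: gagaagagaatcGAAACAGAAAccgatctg
Eif2ak2 site: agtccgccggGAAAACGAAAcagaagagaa
Ddx58 upstream: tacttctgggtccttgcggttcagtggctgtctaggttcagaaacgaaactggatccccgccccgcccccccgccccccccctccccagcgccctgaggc
Ifih1 upstream: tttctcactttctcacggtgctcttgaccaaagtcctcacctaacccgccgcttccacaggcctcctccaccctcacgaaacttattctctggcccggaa
Eif2ak2 upstream: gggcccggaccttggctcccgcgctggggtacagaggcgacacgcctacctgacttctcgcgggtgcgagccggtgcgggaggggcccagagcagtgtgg

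The shorter interferon-gamma element TTCNNNGAA, found in 8.3% of windows, was present in an Adar window and in Eif2ak2. The Myc-type element CACGTG, found in 7.15% of windows, was present in the Tbk1 window. A match describes letters in a window and is not a measured binding site.

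The first experiment had 39577911 to 59443987 counted reads per mouse and state, and 16110 genes were tested. The reprogramming experiment had 13421854 to 19704195 counted reads per library, and 14172 genes were tested. Libraries of 1 condition correlated with r of at least 0.9847. Macrophage markers were present in all libraries, with the 6 genes summing to between 6160 and 18300 CPM, whereas neutrophil markers summed to at most 3.5 CPM and T cell markers to at most 1.58 CPM. Fibroblast markers summed to 4.35 to 24.8 CPM in the first experiment and to 17 to 364 CPM in the second. The highest sums of B cell, eosinophil and mesothelial markers were 13.8, 18.5 and 0.615 CPM in the first experiment. In the second they were 33.2, 45.8 and 14.6 CPM. Mast cell and dendritic cell markers summed to at most 6.32 and 4.21 CPM. Against the negative pool mean, E2f1, Myc, Pparg and Stat6 RNA was at 21.9% to 38.0% with their own pool and at 28.3% to 60.4% with the combined pool.

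Levels are given as CPM, reads of a gene scaled to the TMM-normalized library size. Fold changes are on the log2 scale, each with the SE of an edgeR quasi-likelihood fit, and a gene is called changed at a Benjamini-Hochberg adjusted p under 0.05 over all genes tested. Bulk RNA cannot tell fewer cells of a type from less RNA per cell.

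Per kb of exon, the 2 IKK-related kinases and Mavs were the most abundant members in unstimulated macrophages. In untransfected M0 cells of the reprogramming experiment, Tbk1 was at 26.4 ± 1.14 CPM per kb (SD, n = 3), Ikbke at 14.4 ± 1.03 and Mavs at 12.4 ± 0.566. Among the sensors, Dhx58 was at 8.42 ± 1.45 CPM per kb, Ifih1 at 4.05 ± 0.351 and Ddx58 at 3.85 ± 0.457. The lowest member was Zbp1, at 2.14 ± 0.718 CPM per kb.

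After 24 h with LPS and IFNγ, 8 of the 9 genes rose over M0 and Mavs fell. Against M0, 72.9% of all tested genes were called in either direction and 35.4% were called higher, so a change by itself was common. The median log2 fold change of the 9 genes was 3.36, beside -0.04 over all genes. Zbp1, on chromosome 2 at 173206612 to 173218923 (mm10, as are all gene positions here), had the largest change of the 9. Its level was 5.56, 6.92 and 6.10 CPM in M0 cells of mice 1, 2 and 3 and 561, 575 and 618 CPM in M1-like cells, so that it rose by 6.56 ± 0.0945 on the log2 scale (adjusted p = 1.58e-13).

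Among the sensors, Ddx58 (chromosome 4, 40203773 to 40239828) was at 24.6, 24.9 and 24.3 CPM in M0 cells and at 235, 227 and 296 CPM in M1-like cells. Ifih1 (chromosome 2, 62595798 to 62646255) went from 34.5, 34.1 and 34.5 CPM to 450.2, 449.7 and 491 CPM. Dhx58, whose product lacks the signalling domains of the other sensors (chromosome 11, 100694884 to 100704271), went from 18.1, 17.4 and 17.6 CPM to 259.7, 241 and 271 CPM. No M0 value of a sensor came near its M1-like values, and the log2 fold changes were 3.36 ± 0.0953, 3.76 ± 0.0746 and 3.86 ± 0.0969 (adjusted p = 1.63e-11, 9.98e-13 and 5.86e-12). Eif2ak2 (chromosome 17, 78852564 to 78882573) and Adar (chromosome 3, 89715022 to 89753446) rose by 3.40 ± 0.0875 and 2.51 ± 0.0592 on the log2 scale. Counts here are per gene, so the interferon-inducible and the constitutive Adar isoform cannot be told apart.

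Downstream of the sensors the changes were smaller. Tbk1 (chromosome 10, 121546455 to 121586787) was at 92.2, 92.1 and 97.5 CPM in M0 cells and at 325, 326 and 336 CPM in M1-like cells. Ikbke (chromosome 1, 131254343 to 131279606) was at 100.1, 102.2 and 91.3 CPM in M0 cells and at 171, 175 and 219.6 CPM in M1-like cells. Mavs (chromosome 2, 131234063 to 131248025) was at 36.4, 34.0 and 35.9 CPM in M0 cells and at 23.0, 21.4 and 25.2 CPM in M1-like cells. The log2 fold changes were 1.81 ± 0.0660 for Tbk1, 0.95 ± 0.0948 for Ikbke and -0.61 ± 0.0687 for Mavs, with no overlap between M0 and M1-like mice for any of the 3 genes. Against M2-like cells all 9 genes were called in the same directions (72.6% of all genes called). Since M0 and M2-like cells are both set against the same M1-like libraries, these comparisons are not independent.

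After 24 h with IL-4, 2 of the 9 genes were called against M0, beside 27.9% of all genes. Zbp1 was higher, at 8.10, 8.55 and 8.47 CPM, with a log2 fold change of 0.43 ± 0.0841 (adjusted p = 0.0027). Ikbke was lower, at 67.1, 76.0 and 69.3 CPM, with a log2 fold change of -0.47 ± 0.0947 (adjusted p = 0.0036). For Dhx58 the difference was 0.03 on the log2 scale with a 95% interval of -0.20 to 0.25.

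**Figure D1:**
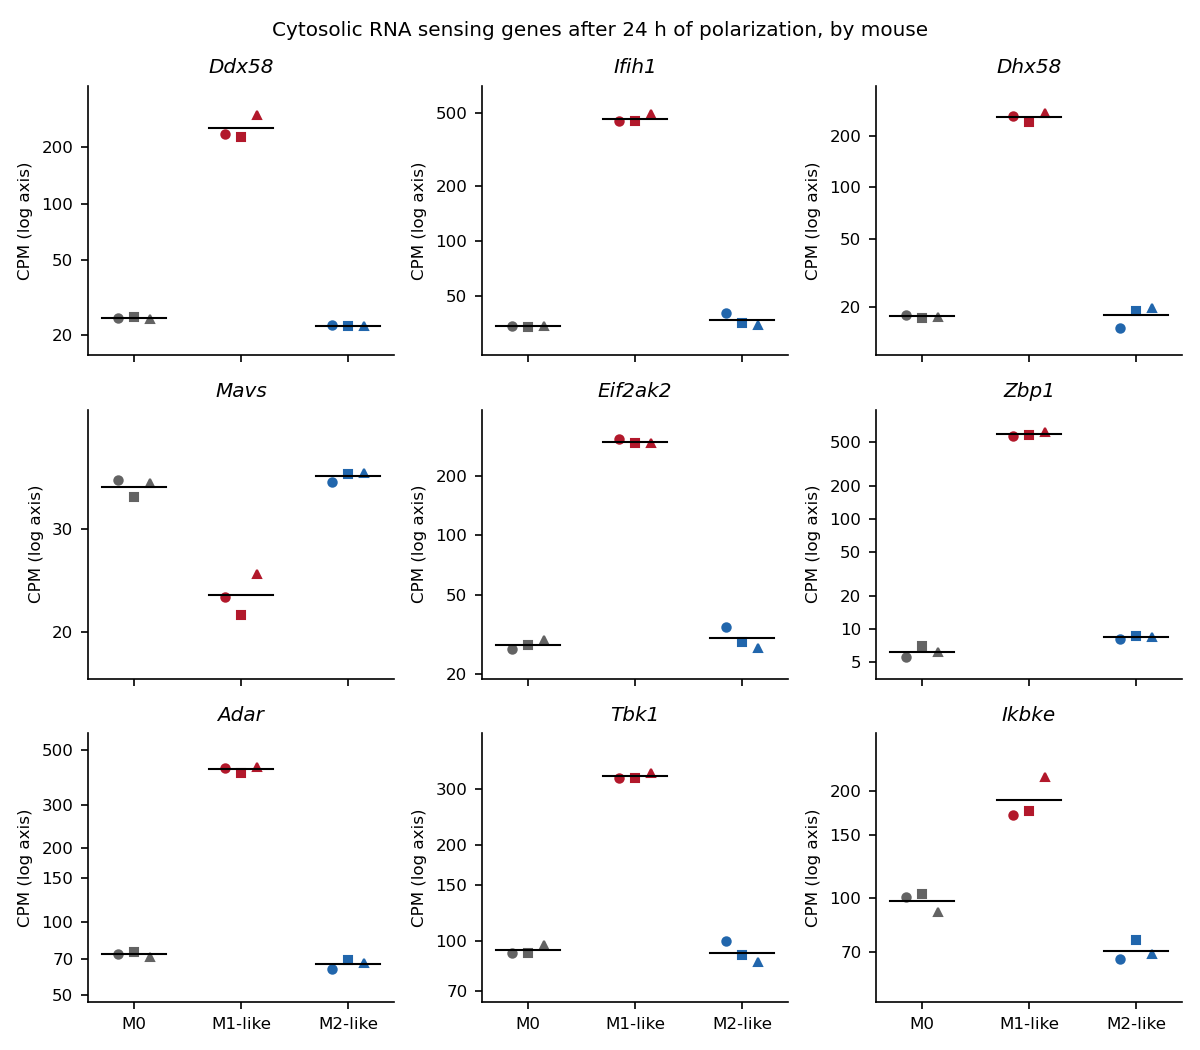
CPM on a log axis of the 9 genes in M0 (grey), M1-like (red) and M2-like (blue) macrophages after 24 h, with circle, square and triangle for mice 1, 2 and 3 and a bar for the mean. M1-like values lie above the M0 and M2-like values in 8 genes and below them for Mavs, which fell to 21.4 to 25.2 CPM.

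In the reprogramming experiment, untransfected M1-like cells again had higher sensors than M0 cells. Here 57.7% of all genes were called and 8 of the 9 members were, 7 higher and Ikbke lower. Zbp1 was at 10.2, 7.38 and 5.12 CPM in M0 cells and at 90.1, 131 and 128 CPM in M1-like cells, and rose by 3.95 ± 0.345 on the log2 scale (adjusted p = 1.53e-11). Dhx58 rose by 1.43 ± 0.171, Ifih1 by 0.79 ± 0.136, Tbk1 by 0.77 ± 0.0655, Adar by 0.72 ± 0.0887, Eif2ak2 by 0.61 ± 0.132 and Ddx58 by 0.51 ± 0.149 on the log2 scale. The sizes of the 2 experiments were not tested against each other, since experiment, read layout, sequencing site and perhaps harvest time differ together and cannot be told apart.

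Ikbke had the opposite order in the 2 experiments. In the reprogramming experiment it was at 135, 136 and 119 CPM in M0, 88.6, 90.4 and 78.0 CPM in M1-like and 211, 216 and 219 CPM in M2-like cells, so that none of the 3 states overlapped. M1-like cells were lower than M0 cells by a log2 fold change of -0.60 ± 0.0767 and lower than M2-like cells by -1.33 ± 0.0770 (adjusted p = 4.73e-08 and 5.22e-16), whereas at 24 h the differences were 0.95 and 1.41. M2-like cells were higher than M0 cells by 0.73 ± 0.0757 (adjusted p = 1.48e-08).

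Between untransfected M1-like and M2-like cells of the reprogramming experiment all 9 genes were called, 7 higher in M1-like cells and Mavs and Ikbke lower (61.5% of all genes called). The call for Mavs, at a log2 fold change of -0.22 ± 0.0920, was lost without any 1 of 4 libraries, M1-like replicates 2 and 3 and M2-like replicates 2 and 3 (adjusted p = 0.0508 to 0.291). Between M2-like and M0 cells 3 of the 9 were called (19.9% of all genes). Besides Ikbke these were Dhx58, with a log2 fold change of -0.57 ± 0.183 (adjusted p = 0.0255), and Adar, with -0.25 ± 0.0899 (adjusted p = 0.0439). Dhx58 lost its call without M0 replicate 1, M2-like replicate 1 or M2-like replicate 2, Adar lost it without M0 replicate 1 or 2 or M2-like replicate 1 or 3, and without M0 replicate 1 only 1 of the 9 was called.

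The transfection reagent alone went with higher levels of the sensors in M0 and M2-like cells. In M2-like cells, Ddx58 was at 25.2, 24.4 and 23.5 CPM without transfection and at 61.0, 97.3 and 85.3 CPM in mock cells. Dhx58 was at 17.1, 18.6 and 19.8 CPM without transfection and at 49.6, 79.7 and 95.8 CPM in mock cells, and Zbp1 went from 4.08, 2.90 and 4.70 CPM to 19.98, 33.9 and 40.4 CPM. Mock replicate 1 was the lowest of its group for each of these genes, and still lay above all untransfected M2-like libraries.

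Of all 14172 genes, 1.77% were called between mock and untransfected M2-like cells, 1.67% higher, and 6 of the 9 members were called, all of them higher. The log2 fold changes were 3.01 ± 0.391 for Zbp1, 2.02 ± 0.178 for Dhx58, 1.74 ± 0.148 for Ddx58, 1.32 ± 0.136 for Ifih1, 1.23 ± 0.133 for Eif2ak2 and 0.996 ± 0.0895 for Adar (adjusted p between 4.12e-10 and 1.89e-06). The kinases and the adaptor were not called, Mavs with a difference of 0.01 (95% interval -0.18 to 0.20), Tbk1 with 0.05 (-0.09 to 0.18) and Ikbke with 0.10 (-0.05 to 0.26). Leaving out any 1 library kept 6 calls, and the log2 fold change of Zbp1 stayed between 2.79 and 3.25. Summed macrophage markers were 15900 to 18300 CPM in untransfected and 14600 to 15900 CPM in mock M2-like cells, fibroblast markers were 87.2 to 292 and 135 to 221 CPM, and none of them was called by edgeR. Their part in the difference was not tested. Untransfected and mock cells may also differ in whether IL-4 was withdrawn and in time of harvest, which cannot be told apart from the reagent.

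In M0 cells, 8 of the 9 members were called higher with mock (20.4% of all genes called, 11.7% higher). Ddx58 was at 30.8, 24.9 and 25.6 CPM without transfection and at 74.9, 82.2 and 120.2 CPM in mock cells, a log2 fold change of 1.77 ± 0.147 (adjusted p = 1.15e-10). Zbp1 was at 28.3, 42.6 and 105 CPM in mock cells, with replicate 3 far above the others, and its log2 fold change of 2.96 ± 0.345 was 2.24 without that library. Ikbke rose by 0.72 ± 0.0757 from 135, 136 and 119 to 215, 205 and 225 CPM, with no overlap (adjusted p = 1.22e-08). Tbk1 differed by 0.18 ± 0.0656 (adjusted p = 0.0456), a call lost without any 1 of 5 libraries, M0 replicates 1, 2 and 3 and M0 mock replicates 1 and 3. Of the 6 macrophage markers, 1 was called higher and 2 lower between mock and untransfected M0 cells, and their sum was 16400 to 16700 CPM in untransfected and 12600 to 15300 CPM in mock cells. The only eosinophil marker tested was called lower. Their part in the differences was not tested.

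In M1-like cells no member was called between mock and untransfected cells. Ddx58 was at 40.2, 38.4 and 37.4 CPM without transfection and at 44.2, 42.9 and 42.6 CPM in mock cells, and Zbp1 was at 90.1, 131 and 128 CPM and at 109, 147 and 135 CPM. Ddx58, Ifih1 and Dhx58 lay above the untransfected libraries in all 3 mock libraries, and the other 6 genes overlapped. Of all 14172 genes 0 (0%) were called by edgeR, with 438 at an unadjusted p under 0.05, none of them a member. DESeq2 also called 0 genes, with 462 at an unadjusted p under 0.05, and edgeR without the filter on low counts called 42. For Ddx58 the log2 fold change was 0.16 with a 95% interval of -0.14 to 0.46, and for Dhx58 it was 0.09 (-0.24 to 0.42).

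The mock differences themselves were then compared in 1 model. Against M2-like cells the mock difference of M1-like cells was smaller for 6 of the 9 genes, beside 1.13% of all genes called, with log2 differences of -2.84 ± 0.483 for Zbp1, -1.93 ± 0.239 for Dhx58, -1.58 ± 0.206 for Ddx58, -1.18 ± 0.188 for Ifih1, -1.15 ± 0.184 for Eif2ak2 and -0.89 ± 0.125 for Adar. Against M0 cells it was smaller for 7 genes, the same 6 and Ikbke (9.07% of all genes called). Over all 14172 genes, it was called smaller for 155 against M2-like cells and for 829 against M0 cells. Between M2-like and M0 cells only Ikbke was called, at -0.62 ± 0.106 (adjusted p = 0.000362), beside 5.66% of all genes. Ikbke was at 211 to 219 CPM in untransfected and at 217 to 247 CPM in mock M2-like cells.

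Among mock cells, Ddx58 was lower in M1-like mock than in M0 mock cells, by a log2 fold change of -1.10 ± 0.140, and lower than in M2-like mock cells by -0.91 ± 0.141 (adjusted p = 5.45e-08 and 1.59e-06). Against M0 mock cells 6 of the 9 were called, Zbp1 and Tbk1 higher and Ddx58, Ifih1, Eif2ak2 and Ikbke lower (60.4% of all genes called). Ifih1 and Eif2ak2 overlapped between the groups. Ifih1 lost its call without M0 mock replicate 3, where its difference was -0.04, or without any 1 of the 3 M1-like mock libraries. Eif2ak2 lost it without M0 mock replicate 3, where its difference was -0.12, or without M1-like mock replicate 1 or 3. Against M2-like mock cells 6 were called as well, Zbp1 and Tbk1 higher and Ddx58, Mavs, Eif2ak2 and Ikbke lower (60.7% of all genes called). Eif2ak2 overlapped between these groups and lost the call without M1-like mock replicate 1 or 3 or M2-like mock replicate 2, and Mavs lost it without M1-like mock replicate 2 or M2-like mock replicate 1. Between M2-like mock and M0 mock cells none of the 9 was called by edgeR or DESeq2, with 3 at an unadjusted p under 0.05 in edgeR (3.83% of all genes called). Without M0 mock replicate 1 or M2-like mock replicate 3, 2 of the 9 were called, Dhx58 and Zbp1, both lower in M2-like cells.

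**Figure D2:**
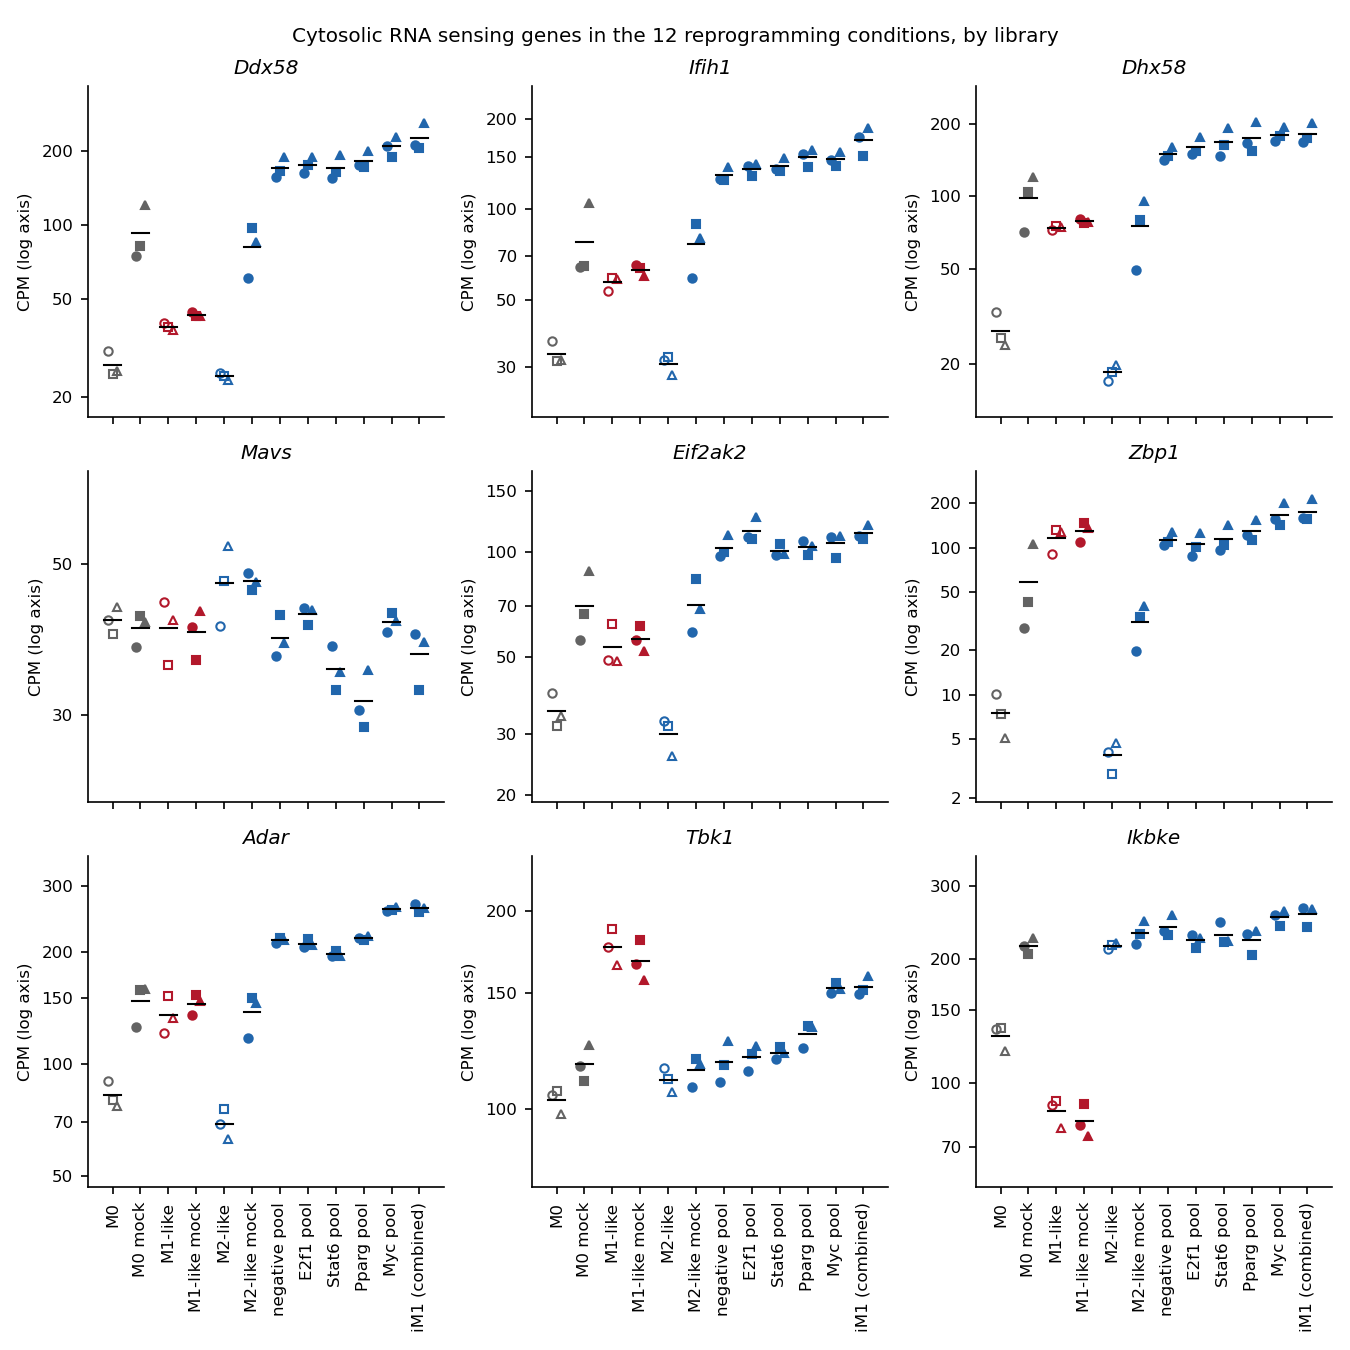
CPM on a log axis of the 9 genes in the 12 reprogramming conditions, with circle, square and triangle for replicates 1, 2 and 3, open symbols for untransfected cells and a bar for the mean. Ddx58 is at 23.5 to 25.2 CPM in untransfected M2-like cells, 61.0 to 97.3 CPM in mock cells and 156 to 188 CPM with the negative pool, whereas Mavs stays between 28.8 and 53.1 CPM.

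The negative siRNA pool went with a further rise of the sensors over mock. In M2-like cells with the negative pool, Ddx58 was at 156, 165 and 188 CPM, Ifih1 at 126, 125.1 and 139 CPM and Dhx58 at 142, 147 and 160.5 CPM. All of these lay above the mock libraries, whose highest values were 97.3, 89.6 and 95.8 CPM. The log2 fold changes over mock were 1.07 ± 0.137, 0.77 ± 0.128 and 0.9995 ± 0.160 (adjusted p = 1.62e-06, 8.30e-05 and 4.58e-05).

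Among the effectors, Zbp1 was at 103, 108 and 128 CPM with the negative pool against 19.98, 33.9 and 40.4 CPM in mock cells, a log2 fold change of 1.86 ± 0.295 (adjusted p = 4.12e-05). Eif2ak2 rose by 0.55 ± 0.125 and Adar by 0.64 ± 0.0872 (adjusted p = 0.00298 and 4.14e-06). Tbk1 and Ikbke overlapped with mock and differed by 0.04 (95% interval -0.09 to 0.18) and 0.05 (-0.11 to 0.20). Mavs was lower, at 36.6, 42.0 and 38.3 CPM against 48.5, 45.9 and 47.1 CPM, by a log2 fold change of -0.28 ± 0.0920 (adjusted p = 0.0467). That call was lost without any 1 of 5 libraries, the 3 mock libraries and negative pool replicates 1 and 3 (adjusted p = 0.0631 to 0.186). In all, 7 of the 9 members were called and 6 of them were higher, beside 11.7% of all genes called and 6.67% called higher.

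Summed macrophage markers were 14600 to 15900 CPM in mock cells and 12200 to 13200 CPM with the negative pool, and 1 of 6 was called lower. Summed eosinophil markers were 18.7 to 19.8 and 33.4 to 38.7 CPM, with Epx and Prg2 at 0 in both groups and the 1 tested marker, Siglecf, called higher, and summed fibroblast markers were 135 to 221 and 220 to 321 CPM. Their part in the difference was not tested. 

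**Figure D3:**
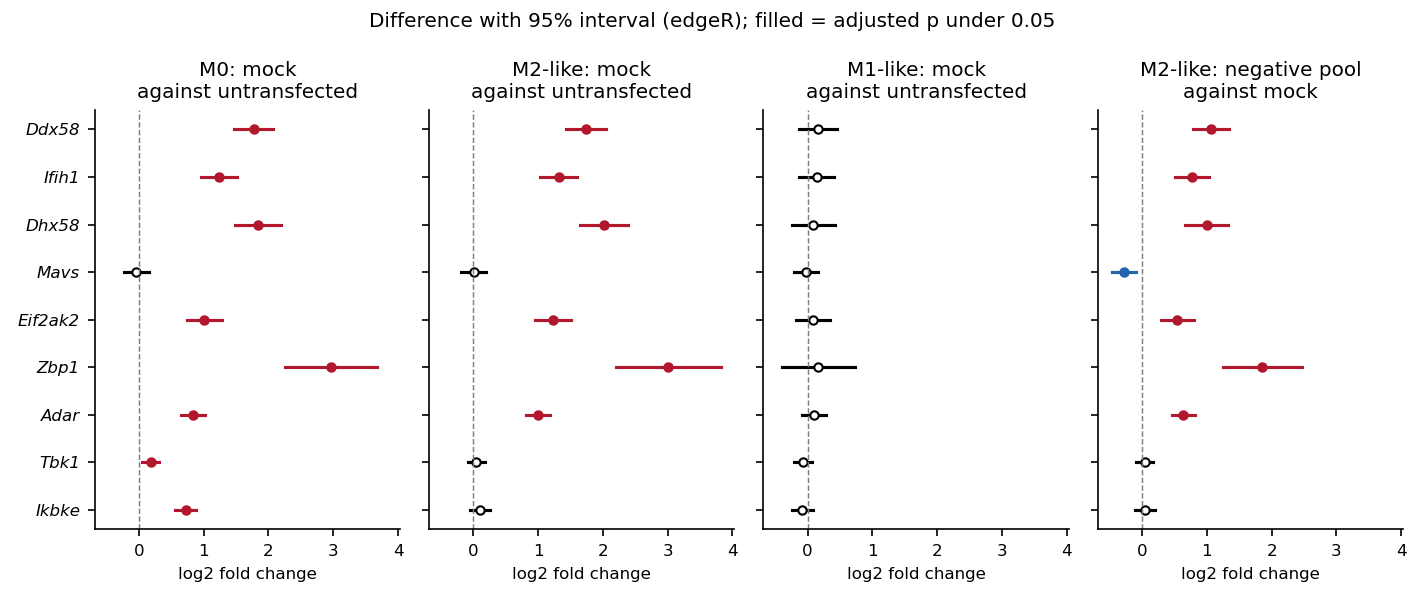
Log2 fold change with its 95% interval for each of the 9 genes, for mock against untransfected cells in M0, M2-like and M1-like macrophages and for the negative pool against mock in M2-like macrophages, with filled symbols for called genes. The intervals of the 3 sensors, Eif2ak2, Zbp1 and Adar lie above 0 in the M0, M2-like and negative pool panels, and no gene was called in M1-like cells.

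With the negative pool as the reference, none of the 9 genes was called for the single pools against E2f1 and Stat6. By edgeR, 0.91% of all genes were called for E2f1 and 1.51% for Stat6, and none of the 9 had an unadjusted p under 0.05 in either comparison. Neither did DESeq2 call a member there. Ddx58 was at 161, 174 and 187 CPM with the E2f1 pool and at 155, 164 and 192 CPM with the Stat6 pool, both overlapping the negative pool. The log2 fold changes were 0.04 with a 95% interval of -0.24 to 0.31, and 0.00 with one of -0.27 to 0.28. With the Pparg pool 1 of the 9 was called, beside 5.74% of all genes: Mavs was at 30.6, 28.8 and 35.0 CPM, a difference of -0.31 ± 0.0937 on the log2 scale (adjusted p = 0.0434). That call was lost without any 1 of 5 libraries, Pparg replicates 1 and 2 and the 3 negative pool libraries.

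The Myc pool and the combined pool went with higher Tbk1 and Adar. Tbk1 was at 109.9, 117 and 127 CPM with the negative pool, at 150.3, 156 and 152 CPM with the Myc pool and at 149.6, 152 and 159 CPM in iM1 cells. Both groups lay above all negative pool libraries, with log2 fold changes of 0.37 ± 0.0650 and 0.38 ± 0.0650 (adjusted p = 4.57e-05 and 4.17e-05). Adar was at 211, 217 and 215 CPM with the negative pool, at 257, 259 and 264 CPM with the Myc pool and at 268, 256 and 263 CPM in iM1 cells, with log2 fold changes of 0.28 ± 0.0861 and 0.29 ± 0.0861 (adjusted p = 0.0144 and 0.0123). Both comparisons use the same negative pool libraries. Both groups received the Myc siRNA, which came from another maker than the other knockdown pools. Its maker and its target cannot be told apart.

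In iM1 cells 4 of the 9 were called higher than with the negative pool, beside 26.5% of all genes called in either direction. The other two were Ddx58, at 211, 205 and 259 CPM with a log2 fold change of 0.41 ± 0.133 (adjusted p = 0.0227), and Ifih1, at 174, 151 and 187 CPM with 0.39 ± 0.126 (adjusted p = 0.0199). Without iM1 replicate 3, or without negative pool replicate 1 or 2, neither was called and 2 of the 9 remained called, and Ifih1 also lost its call without iM1 replicate 1. Zbp1 was at 158, 156 and 213 CPM, above all negative pool libraries, but its difference of 0.63 ± 0.273 was not called (adjusted p = 0.0875). It was called without the filter on low counts and with the compared groups fitted alone (adjusted p = 4.27e-07 and 0.00115), and with the replicate number as a block (adjusted p = 0.0179).

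For the Myc pool 2 of the 9 were called, beside 29.6% of all genes. Ddx58 was at 208, 189 and 227 CPM and Dhx58 at 169.5, 177 and 194 CPM, both above all negative pool libraries, yet the differences of 0.29 ± 0.133 and 0.27 ± 0.156 were not called (adjusted p = 0.0972 and 0.202). With the compared groups fitted alone 6 of the 9 were called, and without the filter on low counts 5 were. Over all genes these settings called 4929 and 4027, beside 4188 in the main fit, out of differing numbers tested.

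**Figure D4:**
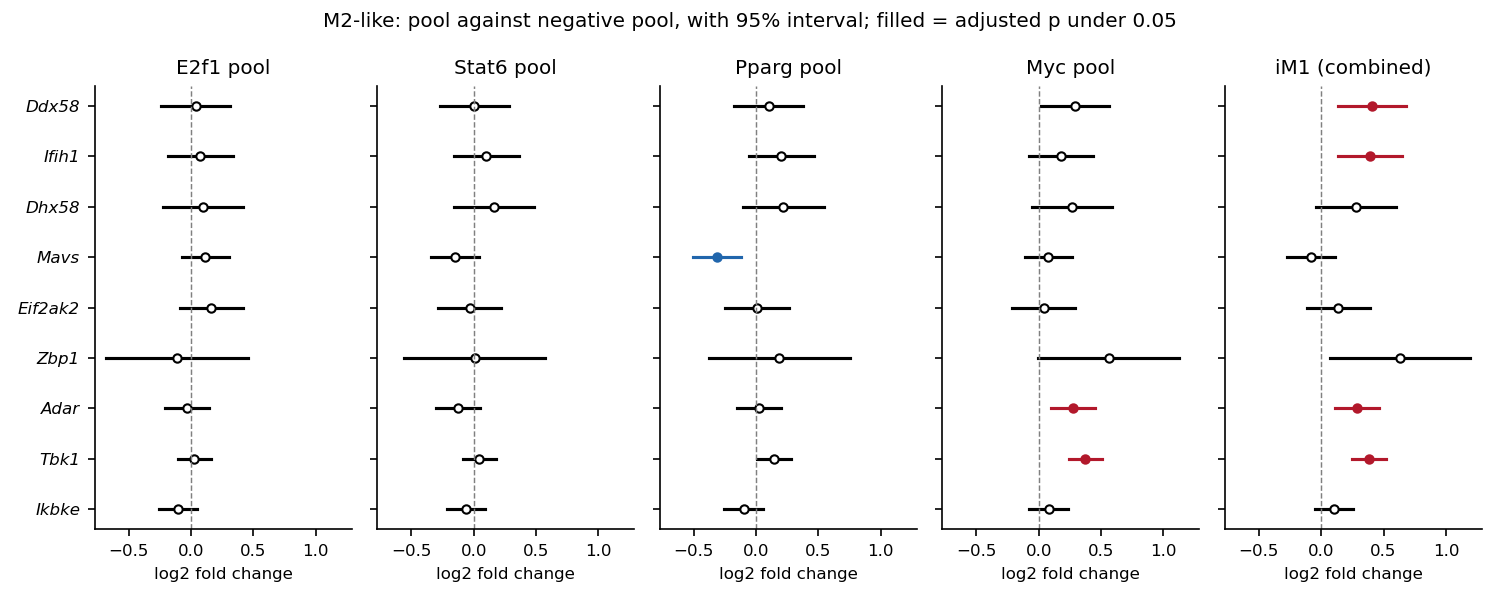
Log2 fold change with its 95% interval of the 9 genes for each knockdown pool against the negative pool in M2-like macrophages, with filled symbols for called genes. Tbk1 and Adar were called with the Myc pool and in iM1 cells, Ddx58 and Ifih1 in iM1 cells, Mavs with the Pparg pool, and none with the E2f1 or Stat6 pool.

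Set against the mock cells, Ddx58, Ifih1 and Dhx58 were called higher with every pool. The count of members called was 8 of 9 for iM1 (37.1% of all genes called), 6 for E2f1 (11.6%), 7 for Myc (38.7%), 8 for Pparg (17.2%) and 7 for Stat6 (11.5%), and all were higher except Mavs. Mavs was lower than in mock cells by a log2 fold change of -0.36 in iM1 cells, -0.59 with the Pparg pool and -0.43 with the Stat6 pool (adjusted p = 0.00256, 1.90e-05 and 0.00175). For Ddx58 the log2 fold changes over mock were 1.47 ± 0.138 for iM1, 1.36 ± 0.137 for Myc, 1.17 ± 0.137 for Pparg, 1.10 ± 0.137 for E2f1 and 1.07 ± 0.137 for Stat6, beside 1.07 ± 0.137 for the negative pool. Zbp1 rose over mock by 2.49 ± 0.297 in iM1 cells and by 1.74 ± 0.295 with the E2f1 pool, beside 1.86 ± 0.295 with the negative pool. Tbk1 lost its call with the Pparg pool without Pparg replicate 2 or 3 or mock replicate 1 or 3 and in 4 of the 5 other alternatives (adjusted p = 0.0523 to 0.206), and Eif2ak2 lost it with the Stat6 pool without mock replicate 1. All these comparisons share the 3 mock libraries, so their values stand side by side only.

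Compared with the mean of the 4 single pools, iM1 cells had higher Ddx58, Adar and Tbk1, by log2 differences of 0.30 ± 0.103, 0.25 ± 0.0669 and 0.23 ± 0.0505 (adjusted p = 0.0461, 0.00851 and 0.00136). These were 3 of the 9, beside 15.5% of all genes called in either direction and 1065 of 14172 called higher. Without iM1 replicate 1 only 1 of the 9 was called. The call for Ddx58 was lost without any 1 of 11 of the 15 libraries, among them each iM1 library. The Myc pool, set against the mean of the other 3 single pools, had 4 of the 9 called (32.6% of all genes), with Adar higher by 0.32 ± 0.0690 and Tbk1 by 0.30 ± 0.0520 (adjusted p = 0.000528 and 3.44e-05). Mavs and Ikbke were called at 0.19 ± 0.0743 and 0.17 ± 0.0602, and leaving out Myc replicate 1 or 3, E2f1 replicate 2, Pparg replicate 2 or Stat6 replicate 2 left 2 of the 9 called. Mavs lost its call without any 1 of 10 of the 12 libraries. The Myc pool also differs from the other 3 single pools in its maker, which cannot be told apart from its target.

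Compared with M1-like mock cells, iM1 cells had 6 of the 9 genes higher (52.9% of all genes called, and 3858 of 14172 called higher). Ddx58 was at 211, 205 and 259 CPM in iM1 cells and at 44.2, 42.9 and 42.6 CPM in M1-like mock cells, a log2 fold change of 2.38 ± 0.143 (adjusted p = 3.71e-15). Ikbke was at 266, 239 and 264 CPM against 79.2, 89.1 and 74.6 CPM, by 1.66 ± 0.0772 (adjusted p = 5.94e-18). Ifih1 was higher by 1.44 ± 0.129, Dhx58 by 1.21 ± 0.159, Eif2ak2 by 1.004 ± 0.125 and Adar by 0.85 ± 0.0869 on the log2 scale. Tbk1 and Mavs overlapped between these groups, and Zbp1 lay above in all 3 libraries without being called (0.43 ± 0.272, adjusted p = 0.187). Summed macrophage markers were 11700 to 12600 CPM in iM1 cells and 6160 to 7160 CPM in M1-like mock cells, and fibroblast markers were 198 to 301 and 17 to 30 CPM. Their part was not tested.

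Over the 12 reprogramming conditions, the order of Ddx58 ran from iM1 (225 ± 29.6 CPM, SD, n = 3) and Myc (208 ± 19.2 CPM) through Pparg, E2f1, Stat6 and the negative pool (170 ± 16.6 CPM), each overlapping its neighbour. A gap followed to M0 mock (92.5 ± 24.3 CPM) and M2-like mock (81.2 ± 18.5 CPM), which overlapped, and then M1-like mock (43.2 ± 0.828 CPM), M1-like (38.7 ± 1.43 CPM) and M0 (27.1 ± 3.23 CPM), which did not. Untransfected M2-like cells were lowest, at 24.3 ± 0.853 CPM, and overlapped M0. Tbk1 had another order, with M1-like (177 ± 11.1 CPM) and M1-like mock (168 ± 12.02 CPM) at the top, followed by iM1 (154 ± 5.10 CPM) and Myc (153 ± 2.82 CPM), and with the Myc libraries above all those of the Pparg pool (130.2 ± 5.65 CPM). Ikbke had both M1-like groups at the bottom, at 85.7 ± 6.71 and 81.0 ± 7.40 CPM, below M0 (130.2 ± 9.31 CPM). Mavs had no gap anywhere in its order, from M2-like mock (47.2 ± 1.34 CPM) to Pparg (31.5 ± 3.16 CPM).

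Other genes of RNA sensing were counted by role. Over all tested genes, 1.67% were called higher in mock than in untransfected M2-like cells, and 6.67% with the negative pool than in mock cells. Among 12 other RNA-binding antiviral proteins, such as the OAS and IFIT families, 9 were higher in mock than in untransfected M2-like cells and 9 were higher with the negative pool than in mock cells, with median log2 fold changes of 2.84 and 1.16. The medians over all genes were -0.0034 and 0.0126. Ifit2, which binds RNA and blocks translation, was at 4.58, 1.68 and 2.65 CPM in untransfected M2-like cells, at 57.6, 167 and 157 CPM in mock cells and at 605, 604.5 and 719.5 CPM with the negative pool. None of these 3 groups overlapped. Among 13 genes of interferon output and response, 10 were higher with mock and 11 with the negative pool, and Mx1, an antiviral GTPase, rose by 4.83 ± 0.428 with mock.

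Among 13 signalling genes between MAVS and IRF3, 1 was higher in M2-like mock than in untransfected cells, beside 1.67% of all genes. This was the transcription factor Irf7, which rose by 4.62 ± 0.387 on the log2 scale. Irf7 rose again with the negative pool, by 1.99 ± 0.317. There 5 of the 13 were called higher and 1 lower, beside 6.67% of all genes called higher. Of 12 tested regulators of RIG-I and MDA5, 2 were higher with mock, the helicase Ddx60 by 1.57 ± 0.202 and the ubiquitin ligase Trim25 by 0.43 ± 0.0666. With the negative pool 3 were higher and 1 lower, with Ddx60 at 1.21 ± 0.169. Among 12 partners of PKR and ZBP1, 1 was higher with mock and 3 with the negative pool, and Mlkl, which executes necroptosis, rose in both, by 1.01 ± 0.143 and 0.67 ± 0.131.

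Of 8 genes of endosomal RNA sensing 0 were called with mock and 3 were higher with the negative pool, beside the 1.67% and 6.67% of all genes called higher in these comparisons, among them Tlr3 by 0.69 ± 0.196 and Tlr7 by 0.58 ± 0.125. Of 6 tested genes of cytosolic DNA sensing, 3 were higher with mock and 6 with the negative pool, where Ifi203 and Ifi204 rose by 1.03 ± 0.181 and 1.02 ± 0.153. Of 7 interferon receptors and their kinases 0 were called with mock, and 1 was higher and 1 lower with the negative pool, Ifngr2 by 0.40 ± 0.0711 and Ifngr1 by -0.41 ± 0.0742.

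In iM1 cells and with the Myc pool, 1778 and 1975 of all 14172 tested genes were called higher than with the negative pool, and 1972 and 2213 lower. Of the 13 signalling genes, 5 were higher in iM1 cells, and 6 were higher and 1, Chuk, was lower with the Myc pool. Of the 13 genes of interferon output and response 8 and 6 were higher and 0 were lower. Ifnb1, described below, is among those higher in both and passed the filter on low counts only through these groups. Of the 8 endosomal genes 0 were higher and 2 were lower in both, Unc93b1 (by -0.65 ± 0.0773 and -0.69 ± 0.0773) and Irak4, and of the 12 partners of PKR and ZBP1 2 were higher in both and 3 and 4 were lower. Of the 12 other RNA-binding antiviral proteins 4 and 1 were higher, of the 12 regulators of RIG-I and MDA5 3 and 0 were higher and 2 were lower in both, of the 7 receptors and kinases 0 were higher and 2 were lower in both, and of the 6 DNA sensing genes 0 were called in either. The signalling genes with the largest rise were Traf3 and Traf2. Traf3, an adaptor between MAVS and TBK1, was at 44.2, 42.5 and 43.0 CPM with the negative pool, at 70.8, 63.7 and 72.7 CPM with the Myc pool and at 73.2, 69.7 and 76.0 CPM in iM1 cells. Its log2 fold changes were 0.67 ± 0.0701 and 0.75 ± 0.0702, and those of Traf2 were 0.72 ± 0.0887 and 0.67 ± 0.0892. Both comparisons share the negative pool libraries, and in both the maker and the target of the Myc siRNA cannot be told apart. With the Pparg and Stat6 pools 1 of the 13 each was higher, beside 384 and 66 of all 14172 tested genes.

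Ifnb1, which encodes interferon beta, was close to absent in most conditions. It had 0 reads in all 6 untransfected and mock M2-like libraries, and 0 reads in 1 library alone allows an expected count up to 3. With the negative pool, Ifnb1 had 0 to 4 reads per library. With the Myc pool it had 12 to 30 reads per library and in iM1 cells 9 to 24, which were 0.592, 0.661 and 1.86 CPM and 0.953, 0.489 and 1.46 CPM. Over the negative pool, whose 3 libraries held 5 reads in all, the log2 fold changes were 3.22 ± 0.722 and 3.14 ± 0.732. No library of the reprogramming experiment outside the Myc and iM1 groups held more than 4 reads. Ifnb1 thus passed the filter on low counts there only through the groups where it was high, so these differences are descriptions. In the first experiment Ifnb1 had 2 to 18 reads per mouse in M1-like cells and 0 reads in M0 and M2-like cells. The E2f1, Stat6 and Pparg pools had 0 to 1, 1 to 4 and 3 to 4 reads per library. These pools came from another maker than the Myc pool, and maker and target cannot be told apart.

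Genes with the most similar profile were looked up by the Pearson correlation of mean log2 CPM over the 12 reprogramming conditions, among 10130 genes. Conditions share controls, depth and handling, so the values are descriptions. The closest genes were Ifit3b (r = 0.995), Tent4a and Samd9l for Ddx58, Ddx60 (0.996), Nmi and Znfx1 for Ifih1, and Ifit1 (0.997), Isg15 and Ifit3 for Dhx58. For Eif2ak2 they were Oas1g (0.993), Ifih1 and Ifit3, for Zbp1 Ifi206 (0.992), Herc6 and Trim30c, and for Adar Usp18 (0.996), Isg15 and Daxx. Among Ddx58, Ifih1, Dhx58, Eif2ak2, Zbp1 and Adar, the 15 pairs had r between 0.746 and 0.992.

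The adaptor and the kinases had other company. Mavs was closest to Rsph3a (0.921), Zbtb49 and Dhdh, and its r with the other members ran from -0.615 to -0.069. Tbk1 was closest to Zcchc4 (0.987), Insl6 and Cry1, and Ikbke to S100a1 (0.991), Speg and Mast4, and the r of each with the other members ran from -0.481 to 0.669 and from -0.481 to 0.674.

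Exons of Dhx58, Eif2ak2, Adar and Ikbke overlap in part exons of genes on the other strand, such as Chrnb2 for Adar. The strand setting of the counting is not given in the sources used here, so reads in those bases cannot be assigned with certainty.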

How the data were processed

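The authors deposited 1 table of read counts per library, whole numbers per Ensembl gene, made per the submitters' processing notes with Trimmomatic, TopHat2 and featureCounts on mm10. Tool versions, strand and multi-mapping settings are not given in the sources used here. Counts of the pair of technical replicates of each mouse and state were summed (9 sums from 18 libraries), and the 36 reprogramming libraries were used singly. Counted reads per library were 13421854 to 19704195 in the reprogramming experiment and 39577911 to 59443987 per sum in the first.

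Each experiment was fitted once, over all its conditions, with edgeR 4.0.16 (TMM normalization, filterByExpr with a minimum count of 10, glmQLFit and glmQLFTest, Benjamini-Hochberg adjustment over all genes, threshold 0.05) in R 4.3.3. CPM used TMM library sizes. Intervals are 95% from the residual degrees of freedom. Gene positions and exon lengths came from GENCODE M21. The fit was tested on simulated counts with known changes. Alternatives were RLE size factors, no filter, a replicate block, DESeq2 1.42.0, only the compared groups, and each replicate left out in turn. Python 3.11.15 and matplotlib 3.10.9 drew the figures.

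The 9 genes, the pathway lists and the comparisons were chosen with earlier results of these data known. Named besides them are the siRNA targets, up to 2 genes with the largest increase and 2 with the largest decrease among those called in a described list, Ifnb1, and the 3 genes most correlated with each member (mean log2 CPM of at least 2).

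In the first experiment the labels number the mice, so the numbers pair the samples. Same-numbered samples had a median correlation of deviations of 0.25 over 9 pairs, beside -0.135 for other numbers, and the block changed no count of members called there.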

Additional observations from a re-analysis of the deposited data

Results flagged for a closer look

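The mock difference, mock minus untransfected on the log2 scale, differed between cell states by the test of the difference in 1 edgeR model (adjusted p under 0.05). M1-like minus M2-like, it was -1.58 for Ddx58, -1.18 for Ifih1, -1.93 for Dhx58, -1.15 for Eif2ak2, -2.84 for Zbp1 and -0.89 for Adar. M1-like minus M0, it was -1.61 for Ddx58, -1.10 for Ifih1, -1.75 for Dhx58, -0.92 for Eif2ak2, -2.80 for Zbp1, -0.74 for Adar and -0.80 for Ikbke. M2-like minus M0, it was -0.62 for Ikbke. These 3 differences share libraries.

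In the 24 h and the reprogramming experiment, all libraries of a state lay on one side of the other state in the first and on the opposite side in the second for 2 genes, and this difference was not tested. Ikbke in M1-like minus M0 was 0.95 at 24 h and -0.60 in the reprogramming experiment, in M2-like minus M0 it was -0.47 and 0.73, and in M1-like minus M2-like it was 1.41 and -1.33. Zbp1 in M2-like minus M0 was 0.43 and -0.95, the latter not called (adjusted p = 0.141) but called in 4 of 5 alternatives (adjusted p = 5.27e-06 without the filter, 0.0247 with only the compared groups, 0.0454 with DESeq2 and 0.0492 with the replicate block).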

How the results depend on the processing

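The number of the 9 genes called stayed within 1.5 times in all comparisons and alternatives except these, and no member called in the main result or in the alternative changed direction in that alternative. Of 261 differences of a member in a comparison, 36 changed sign with some replicate left out and 3 under another setting, and 0 of these were called with either sign. M2-like against M0 mock cells had 0, but 2 without the filter on low counts and 1 with the replicate block, and 0 to 2 with a replicate left out. The Myc pool against the negative pool had 2, but 5 without the filter, 4 with the block (Ddx58 and Zbp1 added) and 6 with only the compared groups. iM1 against the mean of the single pools had 3, but 5 in each of these 3 alternatives, and 1 to 3 with a replicate left out. Over all genes, the Myc comparison had 4188 calls, 4027 without the filter, 4815 with the block and 4929 with only the compared groups. For iM1 against the mean of the single pools these were 2202, 2219, 2786 and 2675. With a replicate left out, M2-like against M0 cells had 1 to 3, iM1 against the negative pool 2 to 4, Pparg against the negative pool 0 to 1, and Myc against the mean of the other single pools 2 to 5. The cause was not tested.

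In the reprogramming experiment the labels give only a number, so the block was an alternative. Same-numbered libraries had a correlation of deviations above 0.1 in 131 of 198 pairs, and 34 of 36 libraries were closest to their own number. The block ended no call of a member and added 11, among them Zbp1 in iM1 cells against the negative pool (adjusted p = 0.0179).

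Over all genes, counts of calls differed most in small comparisons. For M2-like against M0 mock cells they were 543, 111 with only the compared groups, 783 without the filter and 900 with the block. For mock they rose to 387 without the filter in M2-like cells (1.77% of genes in the main result), and to 42 from 0 in M1-like cells. For E2f1 against the negative pool they were 129, 219 with DESeq2, 237 without the filter, 342 with only the compared groups and 236 with the block, and for Stat6 they were 214, 363 with DESeq2 and 380 with the block. For the difference of mock effects they were 802 and 495 with only the compared groups (M2-like minus M0), 1286 and 735 with only those groups (M1-like minus M0), and 160 and 306 without the filter (M1-like minus M2-like). With a replicate left out they were 247 to 656 for M2-like against M0 mock cells, 45 to 86 for E2f1, 359 to 703 for Pparg and 92 to 151 for Stat6 against the negative pool, 1042 to 1537 for the negative pool against mock and 1137 to 2202 for iM1 against the mean of the single pools. They were 2951 to 4655 for M2-like against M0 cells at 24 h, and against mock 1066 to 1574 for E2f1 and 1052 to 1559 for Stat6. With 3 replicates a group, small differences of the members may go uncalled.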
